A study of Rattus norvegicus and Mus musculus with 251 samples.

Results

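The endocannabinoid receptor Cnr1 and the enzymes that make and break down its ligands, Dagla, Daglb, Mgll, Napepld and Faah, were followed through brain punches of C57BL/6J mice that drank saline or morphine. The 6 genes were chosen by symbol, with earlier results of these data known, out of 46078 genes in the mouse count table. Each had counts in all 62 mouse libraries. Of these, 30 were punches of prefrontal cortex (PFC) and 32 of nucleus accumbens (NAc), with both sexes in every group. Mice labelled Sal drank saline, and their group held 6 PFC and 7 NAc libraries. The Chronic mor group drank morphine solution and had 8 libraries in each region. Tissue labelled Mor + 24h was taken 24 h after the morphine period (9 libraries in each region), and tissue labelled Mor + 2W was taken 2 weeks after it (7 PFC and 8 NAc libraries). No allele or transgene is named for any group. The labels give a shared library number to PFC and NAc libraries but do not say that a number is an animal, and p-values therefore measure the spread between these libraries.

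CB1, the receptor that Cnr1 encodes, is a Gi-coupled receptor that sits mostly on axon terminals and lowers transmitter release when lipids made by the postsynaptic cell reach it. The 2 best known of these lipids are 2-arachidonoylglycerol (2-AG) and anandamide. In brain, 2-AG is formed from diacylglycerol by the lipases DAGLα (Dagla) and DAGLβ (Daglb) and is largely hydrolysed by monoacylglycerol lipase (Mgll). One route to anandamide runs through the phospholipase D encoded by Napepld, and anandamide is hydrolysed by fatty acid amide hydrolase (Faah). In the striatum and the cortex, CB1 is found on terminals of both GABA and glutamate neurons, and CB1 and opioid receptors act through the same family of G proteins.

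The coding stretches below hold the residues by which each protein is recognised, to show which 6 proteins the counts stand for. They were read from the principal GENCODE M21 transcript of each gene, 5′ to 3′ on the coding strand, with the codons of the signature in capitals. The signature is DRY at the inner end of the receptor's helix next to the G protein, GHSXG around the catalytic serine of the lipases, HXHXDH of the metallo-hydrolase fold of Napepld and the GGSSGG amidase signature of Faah, where X is any residue, and each occurs 1 time in its protein.
Cnr1: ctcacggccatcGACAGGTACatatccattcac
Dagla: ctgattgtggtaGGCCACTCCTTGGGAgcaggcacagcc
Daglb: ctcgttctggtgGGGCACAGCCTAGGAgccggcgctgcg
Mgll: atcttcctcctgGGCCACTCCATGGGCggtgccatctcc
Napepld: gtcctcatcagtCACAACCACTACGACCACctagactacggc
Faah: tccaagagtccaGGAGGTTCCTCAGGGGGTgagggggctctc

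The 3 lipases that handle 2-AG carry the same kind of signature, read as GHSLG in Dagla and Daglb and GHSMG in Mgll. Dagla encodes 1044 residues and Daglb 669, and the 2 proteins are identical at 249 of 621 aligned positions (40.1%). No stretch of 75 bases, the length of 1 read, in any transcript of the 6 genes recurred on the same strand in a transcript of another gene. On the opposite strand 23.4% of the 75-base stretches of Daglb and 0.383% of those of Mgll were also part of another gene's transcripts. Whether the authors' counting used strand is not given in the sources used here, so reads from those stretches cannot be assigned with certainty.

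In the GRCm38 build, Cnr1 lies on chromosome 4, 33924593 to 33948831, on the plus strand, and its signature is in exon 2 of 2. Dagla lies on chromosome 19, 10245265 to 10304877, on the minus strand, with 1 antisense gene across it, and Daglb lies on chromosome 5, 143464584 to 143505942, on the plus strand, where it overlaps Rac1 on the other strand. Mgll spans chromosome 6, 88724412 to 88828360, on the plus strand and contains 5 small annotated genes, 3 of them on its own strand. Napepld is on chromosome 5, 21662901 to 21701396, on the minus strand, with a processed pseudogene on the other strand, and Faah is on chromosome 4, 115967145 to 116017926, on the minus strand with no overlapping gene. The signature codons are in exon 14 of 20 in Dagla, exon 11 of 15 in Daglb, exon 3 of 5 in Napepld and exon 5 of 15 in Faah, and in Mgll the stretch shown crosses an exon junction.

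Depth was even but for 1 library. Totals ran from 22387525 to 43963295 counts in the other libraries, whereas the PFC library number 10 (Mor + 2W, female) had 5182601, with 21.1% of its reads unaligned. The labels call every sample neuron, yet the oligodendrocyte gene Mbp was at 1478 to 5930 CPM over all libraries, so the punches were mixed tissue. The 4 cortical excitatory markers (among them Slc17a7 and Tbr1) summed to 1570 to 3737 CPM in PFC and to 5.95 to 648 CPM in NAc. The 6 striatal projection neuron markers (among them Drd1, Drd2 and Adora2a) summed to 113.3 to 243 CPM in PFC and to 161.5 to 4987 CPM in NAc, a wide range within NAc to which the members are set further on. In such bulk punches, fewer cells of a type and less RNA per cell cannot be told apart.

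All 6 genes were expressed in both regions, and Mgll stood highest and Napepld lowest relative to length. Levels between genes are compared as CPM per kilobase of annotated exons, CPM being counts per 1000000 after TMM scaling (edgeR's correction for library composition). In PFC, the median was 64.8 for Mgll, 29.4 for Dagla, 17.5 for Cnr1, 15.2 for Faah, 4.98 for Daglb and 4.63 for Napepld. Mgll was above Dagla, and Dagla above Cnr1, in each of the 30 PFC libraries. Cnr1 was above Faah in 23 of 30 and Daglb above Napepld in 22 of 30. On this scale neither of those neighbours in the order was apart in all libraries.

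In NAc the order changed in its upper part. Mgll again came first at a median of 29.6 CPM per kilobase, followed by Cnr1 at 14.04, Dagla at 12.7, Faah at 3.29, Daglb at 2.96 and Napepld at 2.45. Cnr1 exceeded Dagla in 19 of 32 NAc libraries, Faah exceeded Daglb in 21 and Daglb exceeded Napepld in 22. On this scale these neighbours overlapped widely. Faah's annotated exons cover 7834 bases, including retained introns, against 3827 bases in its principal transcript. Per kilobase of principal transcript, Faah rose to the second place in PFC at 31.2, above Dagla at 30.02 in 19 of 30 libraries. In NAc Faah, at 6.74, stayed below Dagla. For Daglb the exons cover 9567 bases, against 4651 in its principal transcript. Per kilobase of principal transcript, Daglb was above Napepld in 30 of 30 PFC libraries (medians 10.2 and 4.64). The same held in 32 of 32 NAc libraries (6.09 and 2.45).

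**Figure D1:**
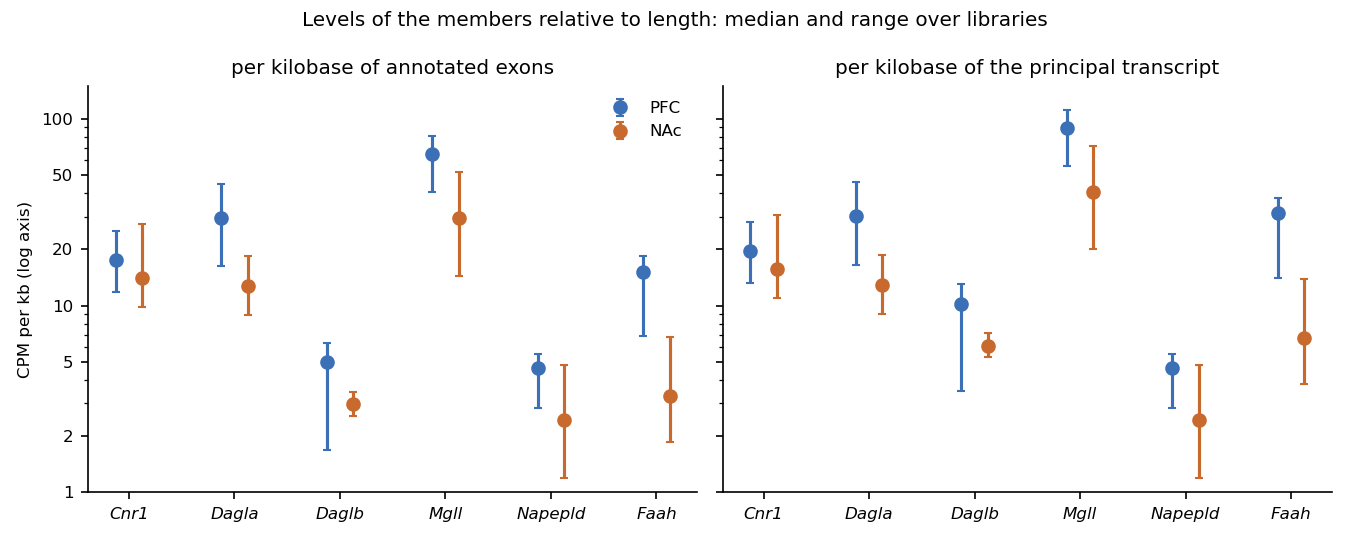
Levels of the 6 members relative to length, as CPM per kilobase on a log axis, with the median (point) and the lowest and highest library (bars) in PFC (30 libraries) and NAc (32 libraries). The left panel divides by all annotated exon bases and the right panel by the principal transcript, and the place of Faah in PFC is the one that changes most between them.

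Ratios between the enzymes, per kilobase of annotated exons, are given as a description, with no test. For the 2 lipases that form 2-AG, Dagla was above Daglb in every library, with a per-length ratio of median 5.91 in PFC (3.65 to 9.59) and 4.16 in NAc (3.11 to 5.31). For the enzymes that remove the 2 ligands, Mgll over Faah had a median of 4.13 in PFC (3.38 to 11.8) and 9.18 in NAc (3.51 to 27.9). Along the anandamide route, Faah over Napepld had a median of 3.33 in PFC (2.28 to 5.27) and 1.25 in NAc (0.914 to 1.95). The ranges of Mgll over Faah and of Dagla over Daglb overlapped between regions, and those of Faah over Napepld did not. The size of these ratios depended on the length used. Per kilobase of principal transcript, a scale added after seeing the data, Dagla over Daglb had a median of 2.93 in PFC and 2.06 in NAc, and Mgll over Faah 2.79 and 6.19. On that scale Faah over Napepld had a median of 6.82 in PFC (4.66 to 10.8) and 2.56 in NAc (1.87 to 3.98), again without overlap. The share of other gene pairs without such overlap is not given here, so nothing particular to this pair is read from it.

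The clearest difference in these genes was between the regions. All 6 were lower in NAc than in PFC, from a small difference for the receptor to more than 4-fold for Faah. The difference was tested with edgeR's quasi-likelihood test over all 62 libraries, averaged over treatments and sexes, with Benjamini-Hochberg adjustment over 19266 genes, and a gene is called where the adjusted p is under 0.05. The members' 6 calls, all lower in NAc, stand against 66.2% of all tested genes called in either direction and 29.7% called lower in NAc. Their median log2 difference (NAc minus PFC) was -0.94, beside 0.07 over all genes tested.

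Cnr1 ranged from 76.1 to 162.1 CPM in PFC with a median of 112.6, and from 63.03 to 176.4 CPM in NAc with a median of 90.4. The ranges overlapped, and the highest single library, Chronic mor number 31, was from NAc. Its log2 difference was -0.30 ± 0.08 (SE, edgeR adjusted p = 0.000433), with a 95% interval of -0.46 to -0.15. Of the 6 members this was the smallest difference, and 26.3% of all genes tested were lower still in NAc.

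Among the 2-AG lipases, Dagla went from 93.5 to 258 CPM in PFC (median 169.1) and from 51.02 to 105.8 CPM in NAc (median 72.9). Its log2 difference was -1.17 ± 0.07 (SE, edgeR adjusted p = 2.43e-22). Daglb went from 16.2 to 60.6 CPM in PFC (median 47.6) and from 24.6 to 33.2 CPM in NAc (median 28.3), with a log2 difference of -0.73 ± 0.05 (SE, edgeR adjusted p = 1.19e-17). The PFC library number 10 was the only one of the 30 inside or below the NAc range for either gene. Without it the lowest PFC values were 108.4 CPM for Dagla and 40.9 CPM for Daglb, above all 32 NAc libraries.

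Mgll, which ends the 2-AG signal, ranged from 206 to 412 CPM in PFC (median 329) and from 73.5 to 264 CPM in NAc (median 150). Its log2 difference was -1.06 ± 0.09 (SE, edgeR adjusted p = 2.06e-15), and 29 of 30 PFC libraries were above every NAc library. The 1 exception in PFC was a Chronic mor library, number 25, at 206 CPM. That library also had the lowest cortical marker sum of the 30, at 1570 CPM, and the highest sum of the 4 oligodendrocyte markers (among them Mbp and Mog), at 6895 CPM, whose part in its Mgll level was not tested.

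On the anandamide side, Napepld ranged from 11.2 to 21.7 CPM in PFC (median 18.3) and from 4.74 to 19.003 CPM in NAc (median 9.68), a log2 difference of -0.82 ± 0.09 (SE, edgeR adjusted p = 5.79e-11). The regions overlapped for Napepld, with 21 of 32 NAc libraries below the lowest PFC library, which was number 10. Without number 10 the lowest PFC value of Napepld was 13.6 CPM, still inside the NAc range. Faah had the largest difference of the 6, from 54.1 to 144.3 CPM in PFC (median 119.2) against 14.6 to 52.9 CPM in NAc (median 25.8). No NAc library reached the lowest PFC library for Faah, and only 2.85% of all genes tested were lower still in NAc. The log2 difference was -2.19 ± 0.08 (SE, edgeR adjusted p = 3.38e-30), a 4.57-fold lower level.

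The order of the 6 differences held within each treatment for Faah, whose PFC median was 4.23 to 5.61 times its NAc median in the 4 treatments with no overlap in any of them. The PFC median of Cnr1 was 1.05 to 1.68 times its NAc median, with overlap in all 4 treatments. For Mgll, Dagla and Daglb the regions did not overlap in 3 of the 4 treatments, and for Napepld in 1. The treatment with overlap was Chronic mor for Mgll, and Mor + 2W, whose PFC group held library number 10, for Dagla and Daglb. Without that library every PFC value of Dagla and Daglb was above all NAc values, as given above. The share of all genes without such overlap is not given here, and 66.2% of all tested genes were called between the regions. Nothing particular to the members is therefore read from these counts.

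**Figure D2:**
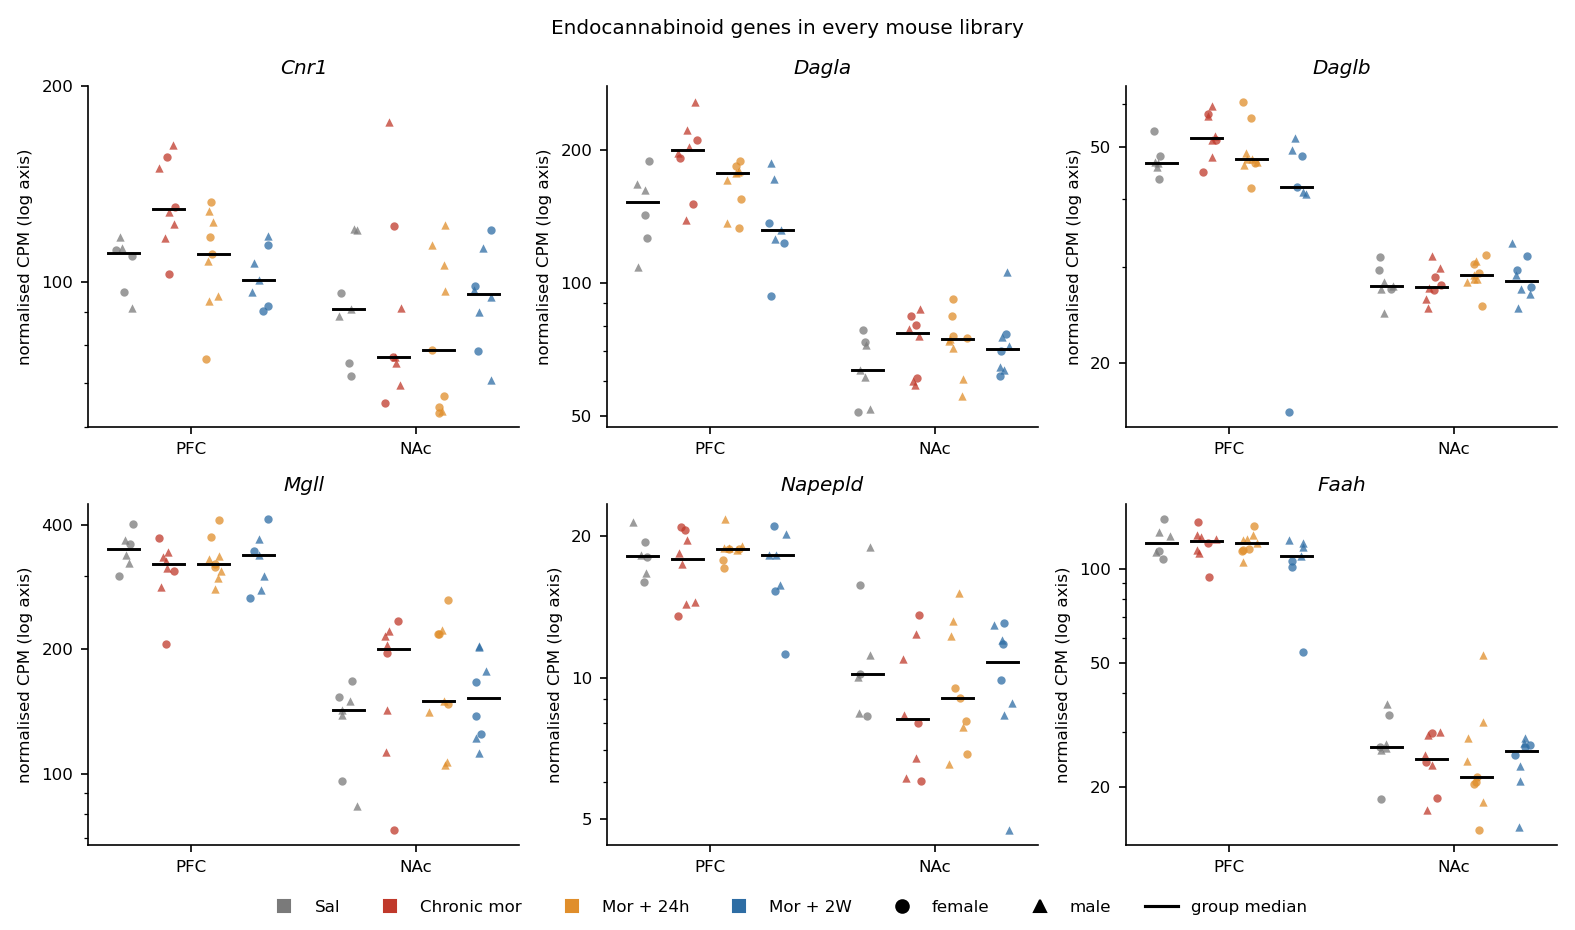
Normalised CPM of each member in every mouse library on a log axis, by region and treatment, with females as circles, males as triangles and group medians as black lines. Faah is the gene whose regions lie furthest apart, from 54.1 CPM upward in PFC and up to 52.9 CPM in NAc, and the isolated low PFC points of Daglb and Faah are library number 10.

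**Figure D3:**
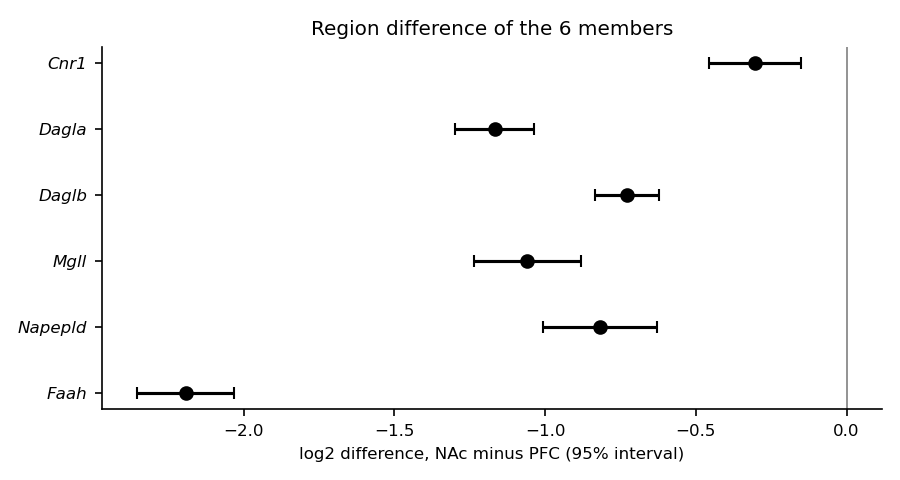
Log2 difference between the regions, NAc minus PFC, for each member with its 95% interval from edgeR over 62 libraries. Every interval lies below 0, from Cnr1 at -0.30 to Faah at -2.19.

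The stages of morphine exposure were each set against saline within a region, averaged over the sexes. None of the 6 members was called by edgeR at any stage in either region, and DESeq2 also called 0. In PFC the background was 0.417% of 17966 tested genes called under Chronic mor, 0.0779% at Mor + 24h, 0.00557% at Mor + 2W and 0.707% for any difference among the 4 treatments. At an unadjusted p under 0.05 there were 2 members under Chronic mor (Cnr1 and Dagla), 0 at Mor + 24h, 1 at Mor + 2W (Faah) and 2 for any difference, where 7.91%, 3.01%, 5.03% and 8.73% of all tested genes had one. In NAc the background was 1.69% of 18382 genes under Chronic mor, 0.163% at Mor + 24h, 0.00544% at Mor + 2W and 1.84% for any difference, and no member had an unadjusted p under 0.05.

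The 3 stages share the saline libraries of their region. The members' median log2 difference in PFC was 0.06 under Chronic mor, 0.04 at Mor + 24h and -0.12 at Mor + 2W, beside 0.01, 0.01 and -0.05 over all genes. In NAc it was -0.01, -0.06 and 0.04 at the same stages, beside -0.01, -0.01 and 0.00089 over all genes. The PFC Mor + 2W group held library number 10. That library was the lowest in PFC for Faah, Dagla, Daglb and Napepld and the highest for Mgll, and its part in the median was not tested. Over the 6 members and 3 stages the 95% intervals reached from -0.51 to 0.67 in PFC and from -0.87 to 0.81 in NAc, so changes of such sizes were not excluded for the genes at those ends.

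Cnr1 in PFC was at 91.2, 110.98 and 117.3 CPM (lowest, median and highest) in saline libraries and at 103.01, 129.3 and 162.1 CPM under Chronic mor. At Mor + 24h the same 3 values were 76.1, 110.4 and 132.6 CPM, and at Mor + 2W they were 90.4, 100.8 and 117.8 CPM. Under Chronic mor 6 of 8 libraries were above every saline library, and the other 2 were inside the saline range. The log2 difference from saline was 0.32 ± 0.12 (SE, unadjusted p = 0.0132, edgeR adjusted p = 0.457, interval 0.07 to 0.57) under Chronic mor, 0.04 at Mor + 24h and -0.06 at Mor + 2W. In NAc, Cnr1 was at 71.7, 90.9 and 120.6 CPM in saline libraries and at 65.2, 76.8 and 176.4 CPM under Chronic mor, and its log2 differences were -0.0012, -0.16 and 0.05 at the 3 stages. Under Chronic mor in NAc, 2 libraries were below the saline range of Cnr1, 2 above it and 4 inside it.

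Dagla, the main 2-AG synthase of adult brain, had the lowest p of any member. In PFC it was at 108.4, 152.2 and 189.02 CPM in saline libraries and 138.8, 200.2 and 258 CPM under Chronic mor. It was at 132.97, 177.8 and 188.6 CPM at Mor + 24h and 93.5, 131.9 and 187.04 CPM at Mor + 2W. As for Cnr1, 6 of 8 Chronic mor libraries were above every saline library, while all 9 Mor + 24h libraries were inside the saline range. The log2 difference was 0.38 ± 0.14 (SE, unadjusted p = 0.0114, edgeR adjusted p = 0.440, interval 0.09 to 0.67) under Chronic mor, 0.17 at Mor + 24h and -0.14 at Mor + 2W. The test for any difference among the 4 treatments gave Dagla an unadjusted p of 0.00411 and an adjusted p of 0.224 (edgeR). In NAc its log2 differences were 0.17, 0.18 and 0.16, from a saline median of 63.6 CPM to stage medians of 77.2, 74.7 and 70.99 CPM.

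Marker genes moved beside these PFC values. The 4 cortical excitatory markers summed to 2124 to 2937 CPM (median 2308) in saline PFC libraries and to 1570 to 3737 CPM (median 2880) under Chronic mor. The 4 oligodendrocyte markers had medians of 4989 CPM in saline and 3854 CPM under Chronic mor. Their part in the values of Cnr1 and Dagla was not tested.

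Daglb, the other diacylglycerol lipase, was called at no stage. In PFC the log2 differences were 0.15 under Chronic mor, 0.06 at Mor + 24h and -0.22 at Mor + 2W. The Mor + 2W group ran from 16.2 to 51.8 CPM with a median of 42.1, against 43.6 to 53.5 CPM in saline, and without library number 10 its log2 difference was -0.06. In NAc Daglb varied least of the 6, with a standard deviation within treatment and sex of 0.11 on the log2 scale, against a median of 0.29 over all genes. Its 3 NAc intervals together spanned only -0.14 to 0.16.

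Mgll was called at no stage in PFC, with log2 differences of -0.17, -0.06 and -0.07 at the 3 stages. In NAc it was at 83.99, 142.9 and 168.3 CPM in saline libraries and at 73.5, 200.4 and 235 CPM under Chronic mor. It was at 105.1, 150.1 and 264 CPM at Mor + 24h and at 112.5, 152.8 and 203 CPM at Mor + 2W. Above every saline library were 5 of 8 Chronic mor, 4 of 9 Mor + 24h and 3 of 8 Mor + 2W libraries. The log2 differences were 0.36 ± 0.22 (SE, edgeR adjusted p = 0.467), 0.38 ± 0.21 (adjusted p = 0.477) and 0.19 ± 0.22 (adjusted p = 0.920), and each interval included 0. Leaving out 1 library moved them to between 0.21 (without Chronic mor number 27) and 0.55 (without Chronic mor number 25), between 0.28 and 0.46, and between 0.09 (without saline number 2) and 0.27, in the same order.

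Napepld in NAc was the mirror of Mgll in sign. Its saline libraries were at 8.30, 10.2 and 19.003 CPM, and those under Chronic mor at 6.03, 8.15 and 13.6 CPM. At Mor + 24h the values were 6.55, 9.07 and 15.1 CPM, and at Mor + 2W 4.74, 10.8 and 13.1 CPM. The log2 differences were -0.38 ± 0.24 (SE, edgeR adjusted p = 0.470), -0.30 ± 0.23 (adjusted p = 0.596) and -0.18 ± 0.24 (adjusted p = 0.922). Leaving out 1 library gave -0.58 to -0.23, -0.39 to -0.14 and -0.27 to -0.02, and the value nearest 0 was the one without saline number 2 at each stage. In PFC they were -0.05, 0.04 and -0.10, with every stage median between 17.9 and 18.8 CPM.

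Faah in PFC was at 108.01, 120.98 and 144.3 CPM in saline libraries and at 54.1, 110.6 and 123.8 CPM at Mor + 2W, where 3 of 7 libraries were below the saline range. The log2 difference at Mor + 2W was -0.27 ± 0.11 (SE, unadjusted p = 0.0251, edgeR adjusted p = 0.921), and it was -0.15 without library number 10, which held the value of 54.1 CPM. Under Chronic mor and at Mor + 24h the PFC differences were -0.03 and -0.03. In NAc Faah was at 18.4, 26.8 and 36.9 CPM in saline, and its log2 differences were -0.19, -0.19 and -0.17 with intervals that all included 0.

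**Figure D4:**
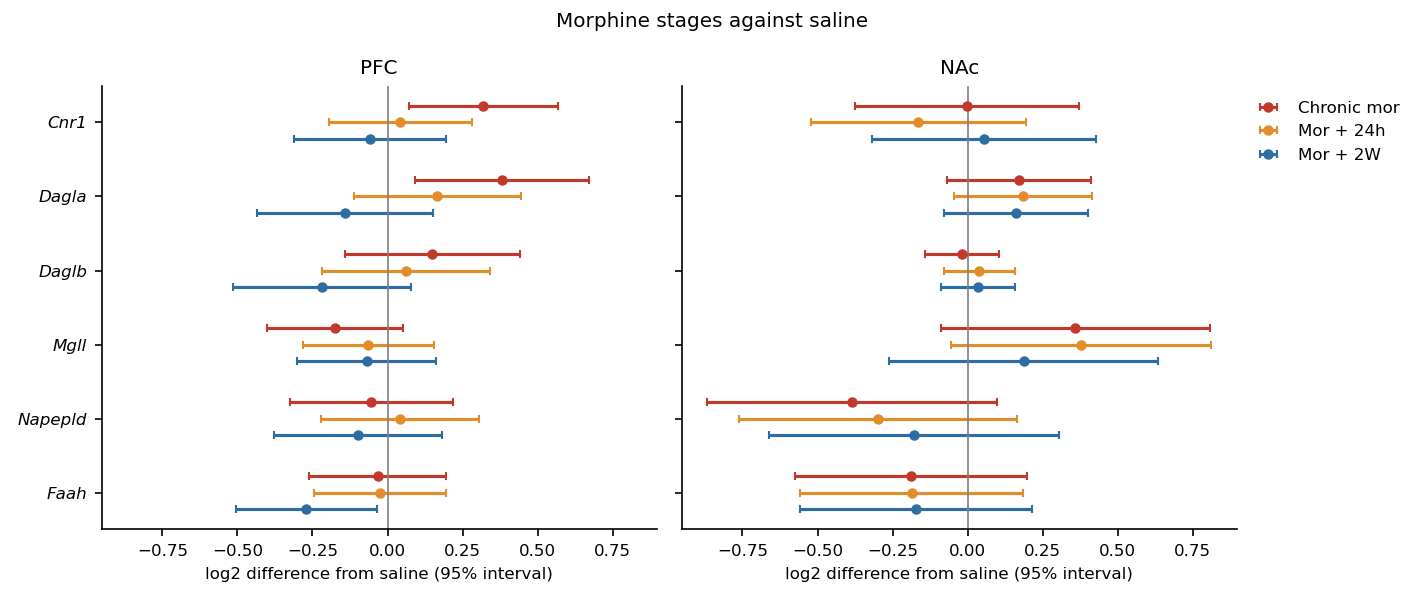
Log2 difference of each member from saline at the 3 morphine stages, with 95% intervals from edgeR, in PFC (left) and NAc (right). The intervals of Cnr1 and Dagla under Chronic mor and of Faah at Mor + 2W in PFC leave out 0 before adjustment, no adjusted p is under 0.05, and the NAc intervals of Mgll and Napepld are the widest.

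Whether a stage acted differently in the 2 regions was tested in a joint model. No member was called (background 0.0363% of 19266 genes), and 0 had an unadjusted p under 0.05 in edgeR. The smallest unadjusted p-values were 0.0624 for Daglb and 0.0625 for Dagla, with adjusted p = 0.986.

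No sex difference was called in these genes. edgeR called 0 members in PFC (background 0.0334%) and 0 in NAc (background 0.0598%), and 0 had an unadjusted p under 0.05 in either region. The nearest was Cnr1 in NAc, with a log2 difference (male minus female) of 0.25 ± 0.13 (SE, unadjusted p = 0.0537, edgeR adjusted p = 0.918, interval -0.0044 to 0.51). For the other members the sex differences lay between -0.05 and 0.12 in PFC and between -0.09 and 0.18 in NAc. The test of whether the stage effects differed between the sexes also called 0 members and had 0 at an unadjusted p under 0.05, in PFC (background 0%) and in NAc (background 0.0544%).

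Within NAc, the level of the members moved with the striatal marker content of the library, most for Mgll, Napepld, Dagla and Faah and less for Cnr1 and Daglb. The share of all genes that moved with these markers as strongly is not given here. Nothing particular to the members is therefore read from these relations. A striatal score was taken per library as the mean over the 6 striatal markers of log2 CPM centred on NAc, and it ranged from -3.35 to 1.53. Its median was 0.19 in saline (from -3.35 to 0.88), 0.62 under Chronic mor (from -3.09 to 1.53), 0.35 at Mor + 24h (from -1.62 to 1.33) and 0.11 at Mor + 2W (from -0.31 to 1.25). The 4 lowest libraries, saline numbers 6 and 2, Chronic mor number 25 and Mor + 24h number 23, scored from -3.35 to -1.62, and the next stood at -0.71.

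Mgll rose with the score, at Pearson r = 0.90 and Spearman rho = 0.92 over the 32 libraries, and Dagla rose with it at r = 0.78 and rho = 0.82. Faah fell with it (r = -0.73, rho = -0.92), as did Napepld (r = -0.81, rho = -0.88) and Cnr1 (r = -0.57, rho = -0.71). Each of Mgll, Dagla, Faah and Napepld had a two-sided permutation p of 1e-05 for r, the smallest that 100000 resamples can give (adjusted over the 6 genes 1.5e-05), and Cnr1 had p = 0.00057 (adjusted 0.000684). For rho the same 4 genes had a permutation p of 1e-05 (adjusted 1.5e-05) and Cnr1 2e-05 (adjusted 2.4e-05). Daglb had the weakest relation, with r = 0.35 (permutation p = 0.0493, adjusted 0.0493) and rho = 0.44 (permutation p = 0.0131, adjusted 0.0131).

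These relations did not rest on the few low libraries. Without the 2 libraries farthest from the median score, r was 0.88 for Mgll, 0.81 for Dagla, -0.81 for Faah, -0.82 for Napepld, -0.53 for Cnr1 and 0.42 for Daglb. Without the 4 lowest it was 0.87, 0.74, -0.84, -0.81, -0.55 and 0.49 in the same order. Within the single treatments, of 7 to 9 libraries each, r ran from 0.86 to 0.99 for Mgll, 0.70 to 0.90 for Dagla, -0.89 to -0.73 for Faah, -0.95 to -0.80 for Napepld, -0.90 to -0.12 for Cnr1 and 0.14 to 0.85 for Daglb.

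In levels, the 4 lowest libraries held Mgll at 73.5 to 107.3 CPM, against a median of 160 CPM in the other 28. They held Dagla at 51.02 to 60.8 CPM (median 74.2 in the others) and Napepld at 13.2 to 19.003 CPM (8.94). Faah was at 29.9 to 36.9 CPM (24.8) and Cnr1 at 96.4 to 121.8 CPM (83.7). Both were inside the range of the other 28, which was 14.6 to 52.9 CPM for Faah and 63.03 to 176.4 CPM for Cnr1. Beside those medians, Mgll and Dagla thus were low, and Napepld, Faah and Cnr1 high, where striatal markers were scarce. Daglb at 27.3 to 28.2 CPM was at the level of the others (28.6). A separate case was Mor + 24h number 24, which held the highest Faah of any NAc library at 52.9 CPM and also the highest cortical marker sum at 648 CPM.

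**Figure D5:**
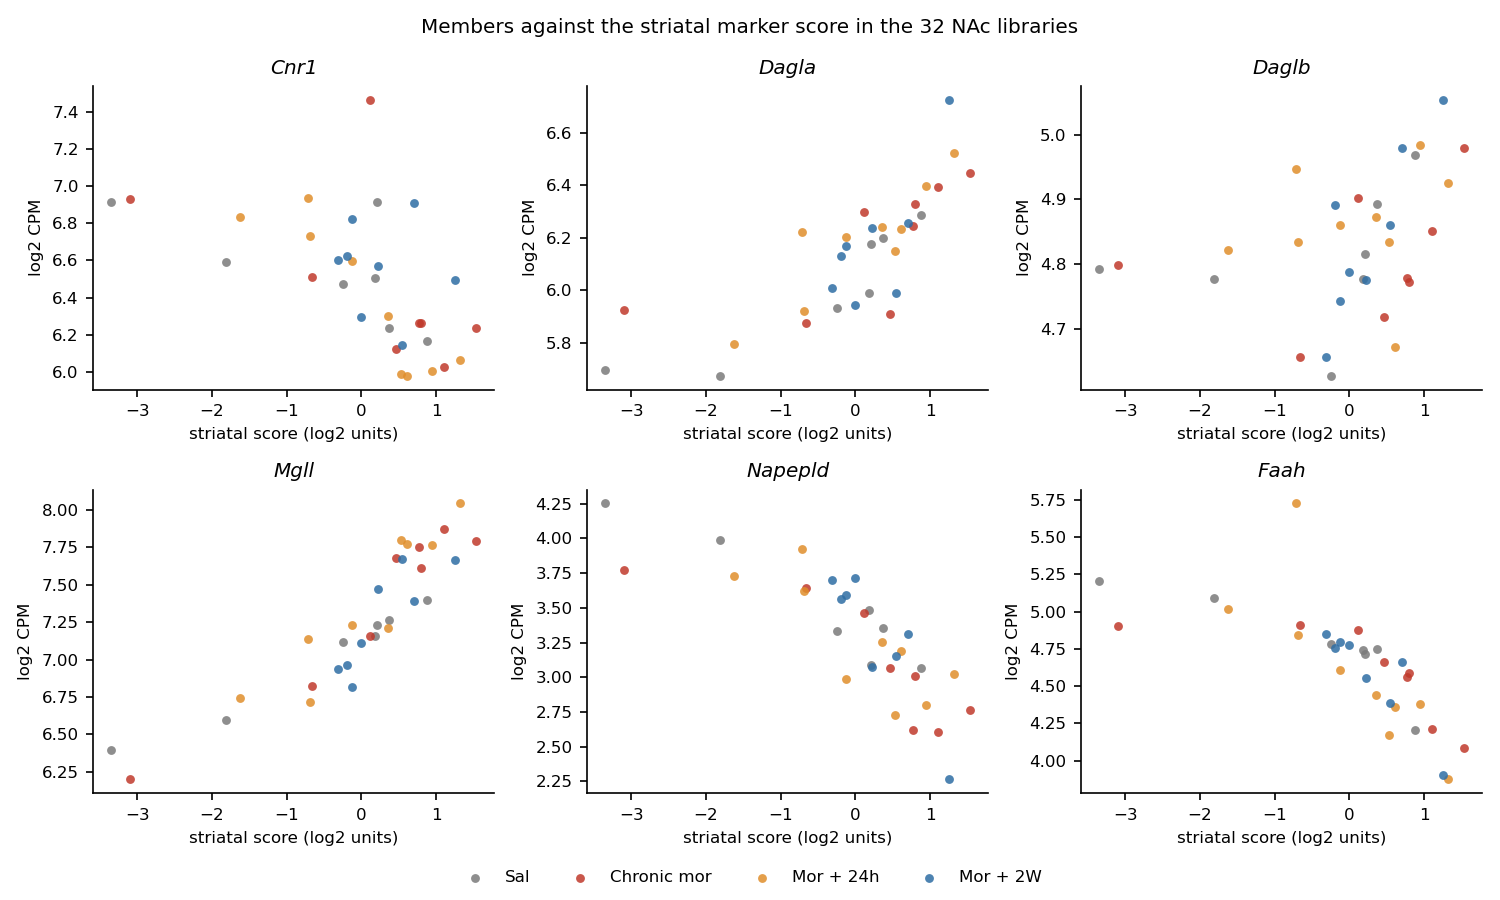
Log2 CPM of each member against the striatal marker score in the 32 NAc libraries, coloured by treatment. Mgll and Dagla rise from left to right, Faah, Napepld and Cnr1 fall, and Daglb shows the weakest relation, with the 4 libraries under a score of -1.62 or at it on the left.

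The signs of the NAc stage differences were those of their relation to the score for Mgll, Dagla, Napepld and Faah at all 3 stages. The mean score was -0.54 in saline, 0.13 under Chronic mor, 0.07 at Mor + 24h and 0.26 at Mor + 2W. The saline mean included numbers 6 and 2, at -3.35 and -1.81. With the score as a covariate the differences for Mgll were 0.11, 0.16 and -0.06 under Chronic mor, at Mor + 24h and at Mor + 2W, and those for Dagla were 0.0965, 0.0978 and 0.0569. Those for Napepld were -0.21, -0.04 and 0.10 and those for Faah -0.07, -0.03 and 0.0079, so that Dagla alone of these 4 kept its sign at all 3 stages. Without the 4 libraries of lowest score, Mgll differed by 0.37, 0.25 and 0.0083, Dagla by 0.12, 0.0984 and 0.0422, Napepld by -0.27, -0.03 and 0.13 and Faah by -0.096, -0.0075 and 0.009. No member was called by edgeR in either of these fits. The part of striatal marker content in the stage differences was not tested.

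The members also differed in how much they varied among libraries of 1 treatment and sex. Variation with the striatal score was not removed from this spread. In NAc the standard deviation of log2 CPM was 0.47 for Napepld, 0.46 for Mgll, 0.37 for Faah, 0.35 for Cnr1, 0.24 for Dagla and 0.11 for Daglb, beside a median of 0.29 over all genes. In PFC it lay between 0.21 and 0.29 for all 6, beside 0.45 over all genes, and without library number 10 between 0.15 and 0.27, beside 0.30. All 6 members were thus below the median gene in PFC, and Napepld, Mgll, Faah and Cnr1 were above it in NAc. These medians are over tested genes of any level and were not matched to the level of the members.

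The genes whose variation was most like that of each member were found by Pearson correlation of log2 CPM within treatment and sex, averaged over PFC (30 libraries) and NAc (32 libraries), among 11965 protein-coding genes. The striatal score was not removed from these correlations, and its part in them was not tested. Those closest to Dagla were Lmtk2 (mean r = 0.89), Adgrl1 (0.89) and Camk1d (0.88). For Mgll they were Prkcz (0.89), Palm (0.89) and Gabrd (0.86), for Cnr1 Usp32 (0.77), Cdk14 (0.76) and Luzp1 (0.75), and for Napepld Rassf8 (0.78), Pigk (0.77) and Tmie (0.76). Faah was closest to Apba2 (0.86), Mast1 (0.84) and Adcy6 (0.84), and Daglb to Ttll11 (0.81), Fam78a (0.79) and Otud7a (0.78). For Daglb and Faah the PFC part leaned on library number 10, without which the PFC r fell to 0.44, 0.19 and 0.39 for the 3 genes of Daglb and to 0.59, 0.43 and 0.53 for those of Faah.

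Around the members, 30 further genes of the endocannabinoid pathway were listed: other receptors and receptor-binding proteins, other hydrolases, other routes to anandamide, fatty acid binding carriers, and the receptors and phospholipases that supply the diacylglycerol for 2-AG. In PFC 27 of the 30 were tested and in NAc 29. edgeR called 0 of them at any stage in either region. At an unadjusted p under 0.05 there were 7 in PFC and 3 in NAc under Chronic mor, 2 and 0 at Mor + 24h, and 0 and 2 at Mor + 2W. Over all tested genes the share with such a p under Chronic mor was 7.91% in PFC and 15.2% in NAc, and at the later stages it was 3.01% and 12.1%, then 5.03% and 6.44%. Their median log2 difference under Chronic mor was 0.02 in PFC and 0.03 in NAc, beside 0.01 and -0.01 over all genes.

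Between the regions, 23 of 29 tested genes of that list were called, 7 higher and 16 lower in NAc, where 66.2% of all tested genes were called and 29.7% were lower. Their median log2 difference was -0.33 beside 0.07 over all genes, and nothing particular to the list is read from these counts. The other hydrolases and oxidising enzymes were lower in NAc in 4 of 4 cases (Abhd6, Abhd12, Naaa and Ptgs2). Of the 11 receptors, G proteins, phospholipases and postsynaptic partners on the 2-AG synthesis side, 2 were higher and 8 lower. Among the higher ones was the glutamate receptor Grm5, with a log2 difference of 1.28 ± 0.09 (SE, edgeR), named after its value was seen. Cnr2, the receptor mostly of immune cells, had a median of 0.16 CPM in PFC and 0.31 CPM in NAc, and Trpv1 was at 0 counts in 16 of 30 PFC and 20 of 32 NAc libraries.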

How the data were processed

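RNA was measured in punches from mouse PFC and NAc. The authors deposited whole-number counts per gene for the 62 mouse libraries, tested here as deposited; the submitters' processing notes name GRCm38, STAR, RSEM and HISAT2 among others without saying which made this table, and strand use is not given in the sources used here. Rows that name no gene held a median of 22.0% of reads and were left out of library sizes and tests. Of 46078 gene identifiers, 45143 matched a GENCODE M21 symbol. The rat libraries were not analysed here.

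edgeR 4.0.16 (R 4.3.3) fitted each region with 1 mean per treatment and sex, TMM scaling and filterByExpr, and both regions jointly for region tests. The calls were also tried on simulated counts whose set changes were larger than the stage differences reported here. Those simulations do not show how well such smaller differences would be called. Log2 CPM used a prior count of 2. Alternatives were DESeq2 1.42.0, its size factors, no low-count filter, additive sex, the striatal score as a covariate, leaving out each library, and the library number as a block. The score correlations and the fits without the 4 NAc libraries of lowest score or without the shallowest library were added after seeing the data. The members and lists were chosen with earlier results of these data known; the named genes are all 6 members, the 3 genes most like each, and listed pathway genes called at a stage, of which there were none; the other pathway genes named between regions were chosen after their values were seen. Some listed genes are not reported here by name.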

Additional observations from a re-analysis of the deposited data

Results flagged for a closer look

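Within 4 treatments and 2 regions, each member's log2 CPM was searched for a highest or lowest library standing apart from its group by Dixon's test at 95%. Of 48 groups searched, 6 had such a library, and chance flags about 1 in 20 groups. Faah at 5.76 and Daglb at 4.03 were both lowest in the PFC library number 10 (Mor + 2W), the one of 5182601 counts, in which all 3 choroid plexus markers and 4 of 6 striatal markers were at 0. Mgll at 7.69 was lowest in the PFC library number 25 (Chronic mor), which had the highest oligodendrocyte marker sum in PFC. Dagla at 6.73 was highest and Napepld at 2.26 lowest in the same NAc library, number 14 (Mor + 2W), whose striatal marker sum was 4161 CPM. Napepld was highest in its group at 4.45 in the PFC library number 24 (Mor + 24h). The part of depth or marker content in these 6 values was not tested.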

How the results depend on the processing

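No alternative changed how many members were called: 0 of 6 for stages, sexes and their interactions and 6 of 6 between regions, over 450 pairs of a comparison and a setting. The tests between regions were not refitted leaving out single libraries, other than without the shallowest. The lowest adjusted p of any stage value was 0.119. All 6 stayed lower in NAc. The replicate block (library number, joint fit) gave log2 differences of -0.32 for Cnr1, -2.20 for Faah and -1.12 for Mgll. For Dagla it gave -1.17, for Daglb -0.72 and for Napepld -0.84. With the block, the genes called for the region difference of the stage effects fell from 7 to 4. Same-numbered PFC and NAc libraries correlated at 0.0077 to 0.22, over 0.1 in 5 of 30 pairs. These correlations cannot tell whether a number is 1 animal, because no values for differently numbered libraries are given. Since the labels do not say it either, the main fit left the numbers unpaired and the block was an alternative. With DESeq2 size factors the correlation of Daglb with the striatal score in NAc was 0.30 (adjusted permutation p = 0.0994).

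Some uncalled log2 differences changed sign, and not all of these were near 0 in the main fit. In NAc at Mor + 2W the main values were -0.17 for Faah, 0.19 for Mgll and -0.18 for Napepld. The values that went the other way were as follows. With the striatal score as a covariate, they were 0.0016 for Faah in PFC at Mor + 24h; 0.0078 for Mgll, -0.0498 for Daglb and -0.0204 for Napepld for sex in PFC; 0.0602 for Cnr1 in NAc under Chronic mor; 0.0079 for Faah, -0.0583 for Mgll and 0.10 for Napepld in NAc at Mor + 2W; and 0.019 for Mgll and -0.0559 for Napepld for sex in NAc. Without the 4 NAc libraries of lowest score, Faah was at 0.009 and Napepld at 0.13 at Mor + 2W. Cnr1 in NAc under Chronic mor was at 0.0053 with DESeq2 size factors and 0.0052 with DESeq2. Leaving out 1 library gave, under Chronic mor, -0.11 to 0.0348 for Faah and -0.11 to 0.0304 for Napepld in PFC, and -0.17 to 0.0874 for Cnr1 and -0.0391 to 0.0112 for Daglb in NAc; in PFC at Mor + 24h, -0.017 to 0.11 for Cnr1, -0.0732 to 0.0425 for Faah and -0.0088 to 0.0866 for Napepld; at Mor + 2W, -0.15 to 0.004 for Mgll in PFC and -0.0246 to 0.13 for Cnr1 in NAc; and for sex, -0.0228 to 0.12 for Daglb in PFC and -0.038 to 0.13 for Napepld in NAc. The cause was not tested.

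The background counts moved more. Under Chronic mor, DESeq2 called 2.33 times as many genes as edgeR's 75 in PFC and 688 against 310 in NAc; additive sex gave 0.627 and 0.555 times as many, and leaving out 1 library gave 0.613 to 2.37 times as many in PFC and 120 to 566 genes in NAc. In NAc, the score covariate gave 677, no filter 0.597 times as many and leaving out the 4 lowest libraries 0.345 times. At Mor + 24h, DESeq2 called 46 (14 in edgeR) in PFC and 5.57 times edgeR's 30 in NAc, and the covariate gave 27 and 68; in NAc additive sex gave 16, no filter 14, the 4 libraries' absence 3, and leaving out 1 library 3 to 49, against 11 to 30 in PFC. At Mor + 2W, DESeq2 called 12 (1) and 41 (1), in PFC no filter and additive sex gave 0, and in NAc the covariate gave 9, additive sex 8 and leaving out 1 library 1 to 5. For any difference DESeq2 called 2.82 times as many in PFC, where leaving out 1 library gave 83 to 205, and 870 against 338 in NAc, where the covariate gave 850, no filter 224, and leaving out 1 library 193 to 352. For the sex difference of the stage effects, DESeq2 called 48 (0) and 96 (10), no filter 27 and 15, the covariate 7 and 19, and leaving out 1 library gave 0 to 11 and 0 to 22. For the region difference of the stage effects, DESeq2 called 29 (7) and the fit without the shallowest library 11.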
